A study of Homo sapiens with 6 samples.

Results

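The genes described here encode 10 transcription factors of the lung mesenchyme: TCF21, FOXF1, TBX2, TBX3, TBX4, TBX5, HOXA5, HOXB5, MEIS1 and MEIS2. They were taken by gene name, from a set proposed with earlier results of these data known, and each matched 1 of the 57659 genes in the count files. Of the 10 genes, 8 had enough counts to be tested, among 13445 genes tested in all, and 2, TBX4 and HOXB5, did not.

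RNA was sequenced from IMR90 cells, a primary fibroblast line of human fetal lung, which is itself a cell of mesenchymal origin. The knockdown group of 3 libraries came from cells that expressed a short hairpin RNA aimed at macroH2A1, a histone H2A variant with a large extra domain. The control group of 3 libraries came from cells with a hairpin aimed at luciferase, a gene that human cells lack. All cells grew in MEM with fetal bovine serum, the labels give no other treatment and no number of hairpins, and the series calls the libraries of a group biological replicates.

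The mesenchyme of the embryonic lung surrounds the budding airway epithelium and gives rise to fibroblasts, smooth muscle and pericytes. Its identity depends on a set of transcription factors that answer to Hedgehog signals from the epithelium and that control, in turn, growth factors of the mesenchyme, among them WNT2, WNT2B, BMP4 and FGF10. In the mouse, loss of TBX4 and TBX5 together blocks lung bud outgrowth, loss of FOXF1 disturbs mesenchyme and vessels, loss of TCF21 leaves lungs without alveoli, and loss of HOXA5 disturbs tracheal and alveolar development. MacroH2A1 is known from other work as a histone variant found mostly, but not solely, on silent chromatin, and the comparison asks which genes change when it is reduced.

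Libraries held between 3741087 and 5322851 gene counts in the knockdown and between 3744716 and 6421605 in the control, and 3 counts in a library stood for 0.475 to 0.804 counts per 1000000 (CPM). MACROH2A1 itself had 197, 201 and 149 counts in the knockdown libraries and 582, 385 and 321 counts in the control libraries, which is 46.3% of the control level after scaling (log2 fold change -1.11, SE 0.08, edgeR adjusted p = 0.000917). Fibroblast markers dominated both groups, with a summed level of 12854 to 13638 CPM in the knockdown and 8169 to 9284 CPM in the control. The 12 epithelial markers summed to at most 1.52 CPM in a knockdown library and 1.85 CPM in a control library, with SFTPB, SFTPA1 and SCGB1A1 at 0 in every library. The 8 endothelial markers reached at most 1.07 CPM in the knockdown and 1.74 CPM in the control, and the 8 blood cell markers at most 1.19 CPM in the knockdown and 1.85 CPM in the control. In RNA from a whole culture, fewer cells that express a gene and less RNA of it per cell cannot be told apart.

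Of the 8 genes tested, TCF21, TBX3 and MEIS1 rose in the knockdown and none fell (quasi-likelihood test of edgeR, p under 0.05 after Benjamini-Hochberg adjustment over all genes tested). Over all genes tested, 3.9% were called higher and 4.31% lower, and 8.21% in either direction. The other 5 genes, FOXF1, TBX2, TBX5, HOXA5 and MEIS2, did not pass. In 7 of the 8 genes every knockdown library lay above every control library in CPM, a pattern seen in 14.5% of all genes tested, and in 30.4% the groups did not overlap in one direction or the other. The exception was MEIS2, which also had the only negative log2 fold change, where 50.8% of all genes tested had a positive one. The median log2 fold change of the 8 genes was 0.41, beside 0.0067 for all genes tested, and 6 of the 8 had an unadjusted p under 0.05, beside 3301 of the 13445.

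**Figure D1:**
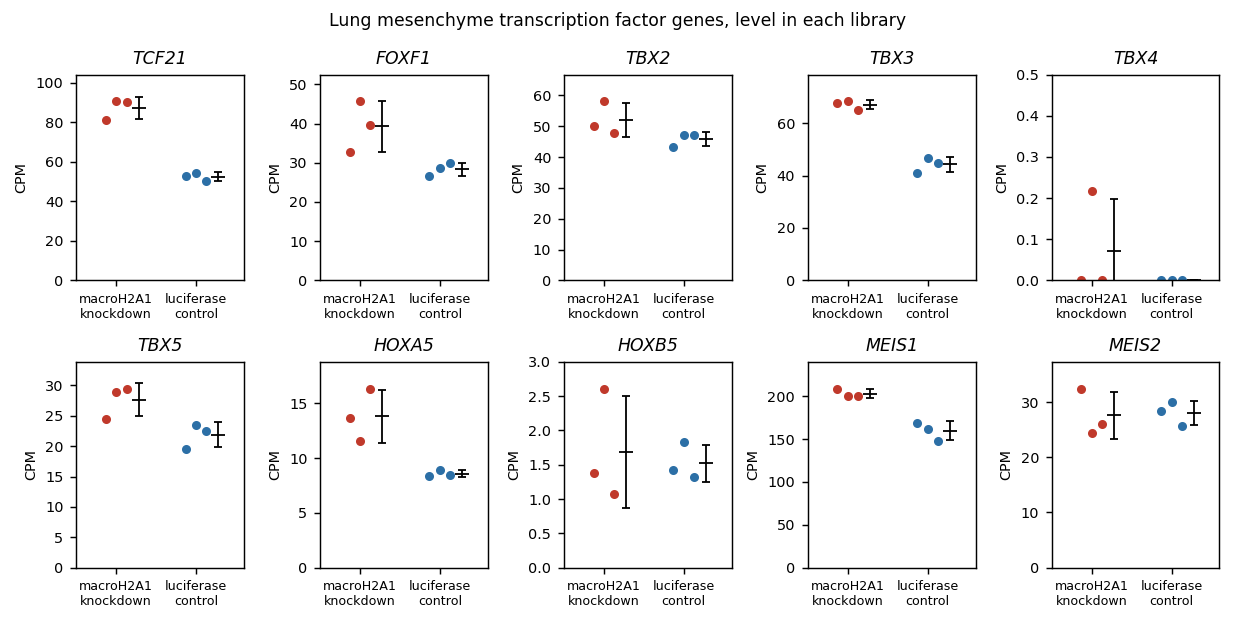
Level of each of the 10 genes in counts per 1000000 (CPM) in the 3 macroH2A1 knockdown libraries (red, left) and the 3 luciferase control libraries (blue, right), with the mean and SD of each group beside the points. Knockdown points lie above all control points for TCF21, FOXF1, TBX2, TBX3, TBX5, HOXA5 and MEIS1, those of MEIS2 and HOXB5 overlap the control, and TBX4 has 1 count in 1 knockdown library.

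The size of a change and its error did not go together over the 8 genes tested. HOXA5 had a log2 fold change close to that of TCF21 with a larger error, 0.17 beside 0.08, and did not pass, while MEIS1 passed with about the same error as TCF21 and a smaller change.

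**Figure D2:**
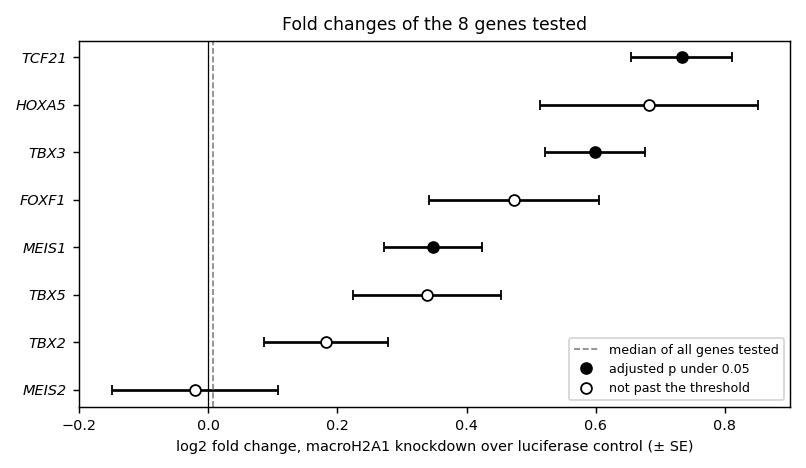
Log2 fold change of each of the 8 tested genes, macroH2A1 knockdown over luciferase control, with its standard error (horizontal axis), ordered from the largest to the smallest. Filled points passed the test (TCF21 at 0.73, TBX3 at 0.60, MEIS1 at 0.35), open points did not, and the dashed line is the median of all genes tested (0.0067).

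TCF21 (ENSG00000118526, chromosome 6), also called epicardin or capsulin, is a basic helix-loop-helix (bHLH) factor that marks lung fibroblasts and their precursors, among them lipofibroblasts. It measured 80.9, 90.5 and 90.3 CPM in the knockdown libraries and 52.7, 54.4 and 50.2 CPM in the control libraries. The lowest knockdown library was far above the highest control library, and the spread within each group was small. The gene averaged 87.2 ± 5.47 CPM in the knockdown and 52.4 ± 2.11 CPM in the control (SD, n = 3 each), a 1.66-fold increase (log2 fold change 0.73, SE 0.08, edgeR adjusted p = 0.00351). TCF21 passed the test in all 15 alternative settings, with log2 fold changes between 0.70 and 0.79.

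On the current annotation, 30.4% of the exon bases of TCF21 lie opposite exons of TARID, an antisense RNA that was described as a guide for demethylation of the TCF21 promoter. TARID itself had 1 count in each knockdown library and 0 in each control library, which is below 3 counts in every library, so no fold is given for it. The strand setting of the authors' counting is not given in the sources used here. If strand was ignored, reads over exons of both genes could have been set aside as ambiguous and so not counted for TCF21. Ambiguous reads made up 1.51% to 1.85% of a library.

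The sequence around the start of TCF21 is shown because this gene had the largest fold change of the 8 genes tested, and that of MEIS1 because it also rose. TBX4, which was barely counted, and TBX5, which did not pass, are shown for comparison. Each window runs from 250 bases before to 50 bases after the start of the RefSeq gene on GRCh38.p14, 5′ to 3′ on the strand of the gene. Such windows were found for TCF21, MEIS1, TBX5, MEIS2 and TBX4. Capitals mark matches to 1 of 6 short motifs searched on both strands: the E-box CAGCTG, the T-box site GGTGTGA, the MEIS site TGACAG, the forkhead site GTAAACA, the GC box GGGCGG and the TATA box TATAAA.
TCF21, chr6:133888863-133889162, plus strand: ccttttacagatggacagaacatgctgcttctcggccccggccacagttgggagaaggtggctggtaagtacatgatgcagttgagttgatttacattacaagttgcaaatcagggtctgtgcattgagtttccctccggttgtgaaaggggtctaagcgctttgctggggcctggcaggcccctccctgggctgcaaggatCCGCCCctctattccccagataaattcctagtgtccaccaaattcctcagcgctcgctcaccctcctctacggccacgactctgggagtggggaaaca
MEIS1, chr2:66434875-66435174, plus strand: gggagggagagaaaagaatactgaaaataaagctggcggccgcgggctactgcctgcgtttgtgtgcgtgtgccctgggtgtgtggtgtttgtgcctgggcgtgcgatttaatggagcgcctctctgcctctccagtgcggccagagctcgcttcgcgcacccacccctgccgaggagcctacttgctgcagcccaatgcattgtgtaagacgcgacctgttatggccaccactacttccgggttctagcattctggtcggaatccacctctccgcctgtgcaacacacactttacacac
TBX5, chr12:114407963-114408262, minus strand: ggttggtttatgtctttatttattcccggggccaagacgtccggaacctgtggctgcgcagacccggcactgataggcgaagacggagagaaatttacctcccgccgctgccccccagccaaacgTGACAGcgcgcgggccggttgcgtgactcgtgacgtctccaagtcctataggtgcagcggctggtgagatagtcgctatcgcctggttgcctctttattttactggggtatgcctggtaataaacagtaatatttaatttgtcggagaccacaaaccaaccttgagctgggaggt
TBX4, chr17:61456238-61456537, plus strand: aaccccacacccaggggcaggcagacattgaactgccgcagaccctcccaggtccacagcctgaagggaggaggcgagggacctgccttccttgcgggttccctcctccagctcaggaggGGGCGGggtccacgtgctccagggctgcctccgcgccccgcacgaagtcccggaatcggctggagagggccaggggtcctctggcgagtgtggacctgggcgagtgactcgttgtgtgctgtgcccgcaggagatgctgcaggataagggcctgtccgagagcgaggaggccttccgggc

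The capitals in the TCF21 window are a GC box on the opposite strand at position -48 from the start, and those in the TBX4 window a GC box at -130. GC boxes occurred in 44.9% of all 34943 RefSeq windows of this length. The capitals in the TBX5 window printed are a MEIS site at -125, a motif that 15.8% of all windows held, and the MEIS1 window held none of the 6 motifs. TBX5 has a further RefSeq window, at chr12:114408393-114408692, which held 15 CpG and none of the 6 motifs. E-boxes, T-box sites, forkhead sites and TATA boxes had no match in the 4 windows printed, while 17.9%, 3.45%, 3.42% and 11.6% of all windows held one. A match is only a run of letters and says nothing of binding.

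The 4 windows also differed in CpG content, the dinucleotide at which vertebrate DNA is methylated. The TCF21 window held 9 CpG, fewer than the median of 14 over all windows, while the MEIS1 and TBX4 windows held 18 each and the TBX5 window 21. None of the 4 was extreme. The TCF21 window held more CpG than 41.7% of all windows, those of MEIS1 and TBX4 more than 55.7%, and that of TBX5 more than 60.6%. The MEIS2 window at chr15:37099057-37099356 had the most of the 7 windows found, with 35 CpG, more than 85.9% of all windows.

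The bHLH genes were read from a list of 17 that held TCF21, its relatives, its dimer partners and the ID proteins that bind those partners. Of 11 tested, 5 rose, TCF21 again among them, and none fell, where 3.9% of all genes tested were called higher. All 11 fold changes were positive, where 50.8% of all genes tested had a positive one, and the median log2 fold change was 0.53. The same shares stand beside the counts of the other lists below. TCF21 binds DNA in pairs with E proteins, and of these TCF4 averaged 109 ± 4.51 CPM in the knockdown and 73.7 ± 7.79 CPM in the control (log2 fold change 0.56, edgeR adjusted p = 0.0163, n = 3 each), while for TCF12 the log2 fold change was 0.42 (edgeR adjusted p = 0.0160). TCF3, the third E protein, had a log2 fold change of 0.38, which did not pass (edgeR adjusted p = 0.134).

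ID1 and ID3, which lack a DNA-binding region and hold E proteins in inactive pairs, rose as well, with log2 fold changes of 1.01 (SE 0.11, edgeR adjusted p = 0.00362) and 1.16 (SE 0.10, edgeR adjusted p = 0.00193). For ID2 the log2 fold change was 0.49 and did not pass (edgeR adjusted p = 0.0691). Without 1 library, 3 or 4 genes of the list were called in place of 5, and TCF4 and TCF12 lost their calls in 5 and 6 of the 15 alternative settings. With only the genes of the authors' table, edgeR called 8, where 1014 of all 11638 genes were called higher.

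FOXF1 (ENSG00000103241, chromosome 16), a forkhead factor that Hedgehog signalling switches on in lung mesenchyme, measured 32.6, 45.7 and 39.6 CPM in the knockdown libraries and 26.6, 28.6 and 29.9 CPM in the control libraries. All knockdown libraries lay above all control libraries, but knockdown replicate 1 was close to the highest control. The averages were 39.3 ± 6.52 CPM in the knockdown and 28.3 ± 1.66 CPM in the control (SD, n = 3 each). The log2 fold change of 0.47 (SE 0.13) did not pass (edgeR adjusted p = 0.0770), and its own 95% interval, which takes no account of the other genes tested, ran from 0.16 to 0.79. Without knockdown replicate 1 the log2 fold change was 0.60 and passed (edgeR adjusted p = 0.0419).

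Among 14 forkhead genes of mesenchyme and lung, 7 were tested, FOXL1 fell and none rose with edgeR, where 2 of the 7 were higher at an unadjusted p under 0.05, and the median log2 fold change was 0.33. FOXF1 was called with only the genes of the authors' table. FOXL1, a Hedgehog-responsive gene that lies in the same chromosome 16 cluster as FOXF1, had 88, 98 and 81 counts in the knockdown libraries and 215, 148 and 121 in the control libraries. It averaged 20.1 ± 2.37 CPM in the knockdown and 33.3 ± 1.13 CPM in the control (SD, n = 3 each; log2 fold change -0.73, SE 0.11, edgeR adjusted p = 0.0103), so that its sign was opposite to that of FOXF1. FOXL1 lost its call without control replicate 1 or control replicate 2 (log2 fold changes -0.71 and -0.72, edgeR adjusted p = 0.0529 and 0.0524). FOXF2, the closest relative of FOXF1, did not pass (log2 fold change 0.62, SE 0.22, edgeR adjusted p = 0.136).

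TBX2 and TBX3 encode T-box repressors that keep mesenchymal cells of the embryonic mouse lung dividing, in part by silencing inhibitors of the cell cycle. TBX3 (ENSG00000135111, chromosome 12) measured 67.8, 68.3 and 65.1 CPM in the knockdown libraries and 41.1, 46.9 and 44.9 CPM in the control libraries. The groups were well apart, and the knockdown libraries differed little among themselves. TBX3 averaged 67.1 ± 1.73 CPM in the knockdown and 44.3 ± 2.92 CPM in the control (SD, n = 3 each), a 1.51-fold increase (log2 fold change 0.60, SE 0.08, edgeR adjusted p = 0.00688), and it passed in all 15 alternative settings.

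TBX2 (ENSG00000121068, chromosome 17) measured 50.2, 58.1 and 47.7 CPM in the knockdown libraries and 43.2, 47.1 and 47.3 CPM in the control libraries. The groups barely missed each other, since the lowest knockdown library lay just above the highest control library. The log2 fold change of 0.18 (SE 0.10) did not pass (edgeR adjusted p = 0.301), with a 95% interval from -0.05 to 0.41.

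TBX5 (ENSG00000089225, chromosome 12), which acts with TBX4 in lung budding and lies next to TBX3, measured 24.5, 28.9 and 29.5 CPM in the knockdown libraries and 19.6, 23.5 and 22.5 CPM in the control libraries. Knockdown libraries were above control libraries, the nearest pair by a small margin. The averages were 27.6 ± 2.71 CPM in the knockdown and 21.9 ± 2.03 CPM in the control (SD, n = 3 each), and the log2 fold change of 0.34 (SE 0.11, 95% interval 0.07 to 0.61) did not pass (edgeR adjusted p = 0.127). TBX5-AS1, an antisense RNA whose exons lie opposite 5.78% of the exon bases of TBX5, had 37, 34 and 38 counts in the knockdown libraries and 40, 32 and 26 counts in the control libraries (log2 fold change 0.27, edgeR adjusted p = 0.457).

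TBX4 (ENSG00000121075, chromosome 17), a marker of lung mesenchyme in the embryo and the neighbour of TBX2, had 0, 1 and 0 counts in the knockdown libraries and 0 counts in each control library. Both groups lay under the 3 counts taken as the floor, so no fold is given, and 3 counts correspond to 0.593 to 0.804 CPM in a knockdown library and 0.475 to 0.793 CPM in a control library. TBX4 was thus not detectable at this depth as the authors counted it, and when edgeR tested every gene with at least 1 count it did not pass (adjusted p = 0.655). On the current annotation no exon of another gene overlaps its exons, and the annotation that the authors used is not given in the sources used here.

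T-box genes were also compared by the ratio of their counts within a library, which does not depend on scaling. TBX3 was called higher in these same libraries, so its ratios are not separate support for a change. TBX3 over TBX2 was 1.35, 1.18 and 1.37 in the knockdown libraries and 0.952, 0.995 and 0.950 in the control libraries, so every knockdown library had more counts of TBX3 and every control library fewer than of TBX2. TBX3 over TBX5 was 2.77, 2.36 and 2.21 in the knockdown libraries and 2.10, 1.99 and 2.00 in the control libraries, again with no overlap. TBX5 over TBX2 overlapped between the groups (log2 difference 0.16, SE 0.12, exact two-sided permutation p = 0.3).

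With 3 libraries against 3, the exact two-sided permutation test cannot give a p below 0.1, so none of these ratios could pass. The log2 difference of TBX3 over TBX2 was 0.42 (SE 0.07) and that of TBX3 over TBX5 was 0.26 (SE 0.10), each at p = 0.1 in that exact permutation test and 0.133 after Benjamini-Hochberg adjustment over the 4 ratios compared. Of the whole T-box family of 17 genes, 5 were tested, TBX3 rose, none fell, the median log2 fold change was 0.34, and 5 genes were at 0 in every library. With only the genes of the authors' table, edgeR called 2, TBX3 and TBX5. TBX1 and MGA, the other T-box genes tested, had log2 fold changes of 0.59 (adjusted p = 0.213) and 0.03 (edgeR adjusted p = 0.895).

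HOXA5 (ENSG00000106004, chromosome 7) patterns the mesenchyme of trachea and lung. It measured 13.6, 11.5 and 16.3 CPM in the knockdown libraries and 8.38, 8.92 and 8.46 CPM in the control libraries. The control libraries were close to each other, all knockdown libraries were higher, and the knockdown libraries varied more. The averages were 13.8 ± 2.41 CPM in the knockdown and 8.59 ± 0.289 CPM in the control (SD, n = 3 each), and the log2 fold change of 0.68 (SE 0.17, 95% interval 0.28 to 1.08) fell just short of the threshold (edgeR adjusted p = 0.0561).

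HOXB5 (ENSG00000120075, chromosome 17), which acts in airway branching in the mouse, had 7, 12 and 4 counts in the knockdown libraries and 9, 8 and 5 counts in the control libraries. The groups overlapped and the gene was too low to be tested. The summed counts were 23 in the knockdown and 22 in the control, a ratio after scaling of 1.13 with an exact conditional 95% interval of 0.602 to 2.13, which covers counting error only. Without knockdown replicate 2 the direction turned, with a log2 ratio of -0.28 in place of 0.18. HOXB-AS3, opposite 3.58% of its exon bases, had 7, 13 and 17 counts in the knockdown libraries and 11, 8 and 18 counts in the control libraries.

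Among all 39 HOX genes, 6 were tested, all 6 fold changes were positive, and the median log2 fold change was 0.21. None was called with edgeR on the 13445 genes, with DESeq2 or with limma-voom. Besides HOXA5 these were HOXA3, HOXB2, HOXB3, HOXB4 and HOXB6, with log2 fold changes between 0.07 and 0.23. HOXA5 alone had an unadjusted p under 0.05, and edgeR called it with every gene of at least 1 count or with only the genes of the authors' table. In the other 13 of the 15 alternative settings HOXA5 did not pass, with an edgeR adjusted p of up to 0.155 when 1 library was left out. The A cluster summed to 17.4 to 24.1 CPM in the knockdown and 13.3 to 15.3 CPM in the control, and the B cluster to 46.1 to 47.1 CPM in the knockdown and 39.1 to 43.0 CPM in the control. The C cluster reached at most 1.19 CPM in a knockdown library and 0.686 CPM in a control library, and the D cluster at most 0.536 CPM in the knockdown and 0.457 CPM in the control. Nearly all HOX counts of both groups came from the A and B clusters.

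MEIS1 and MEIS2 are TALE homeodomain proteins, which bind DNA together with PBX and HOX proteins. MEIS1 (ENSG00000143995, chromosome 2) measured 209, 200.1 and 200.6 CPM in the knockdown libraries and 169, 162 and 147 CPM in the control libraries. The groups did not overlap, and the knockdown libraries were nearly equal. MEIS1 averaged 203 ± 4.92 CPM in the knockdown and 159.6 ± 11.1 CPM in the control (SD, n = 3 each), a 1.27-fold increase (log2 fold change 0.35, SE 0.08, edgeR adjusted p = 0.0392). This call was close to the threshold: it was lost in 9 of the 15 alternative settings, including each of the 6 that left out a library, where adjusted p ran from 0.0760 to 0.119, while the log2 fold change stayed between 0.29 and 0.40.

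MEIS2 (ENSG00000134138, chromosome 15) measured 32.4, 24.4 and 26.0 CPM in the knockdown libraries and 28.5, 30.0 and 25.6 CPM in the control libraries. The groups overlapped, and knockdown replicate 1 was the highest of all 6 libraries. The log2 fold change was -0.02 (SE 0.13, edgeR adjusted p = 0.947), with a 95% interval from -0.33 to 0.28. MEIS1 over MEIS2, as a ratio of counts, was 6.44, 8.21 and 7.72 in the knockdown libraries and 5.94, 5.42 and 5.75 in the control libraries, with no overlap (log2 difference 0.38, SE 0.11, exact two-sided permutation p = 0.1, adjusted 0.133). That p is the lowest the test can give with 3 libraries against 3. MEIS1 was called higher in these same libraries, so this ratio is not separate support for a change.

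Of the 18 TALE genes, 9 were tested, 3 rose, none fell, and the median log2 fold change was 0.23. Among those that rose were MEIS1 and TGIF1. TGIF1, a repressor of TGF-beta and retinoid responses, averaged 59.5 ± 6.61 CPM in the knockdown and 37.7 ± 3.52 CPM in the control (log2 fold change 0.66, edgeR adjusted p = 0.0174, n = 3 each), and lost its call in 4 settings. Without 1 library, 1 or 2 genes of the family were called.

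**Figure D3:**
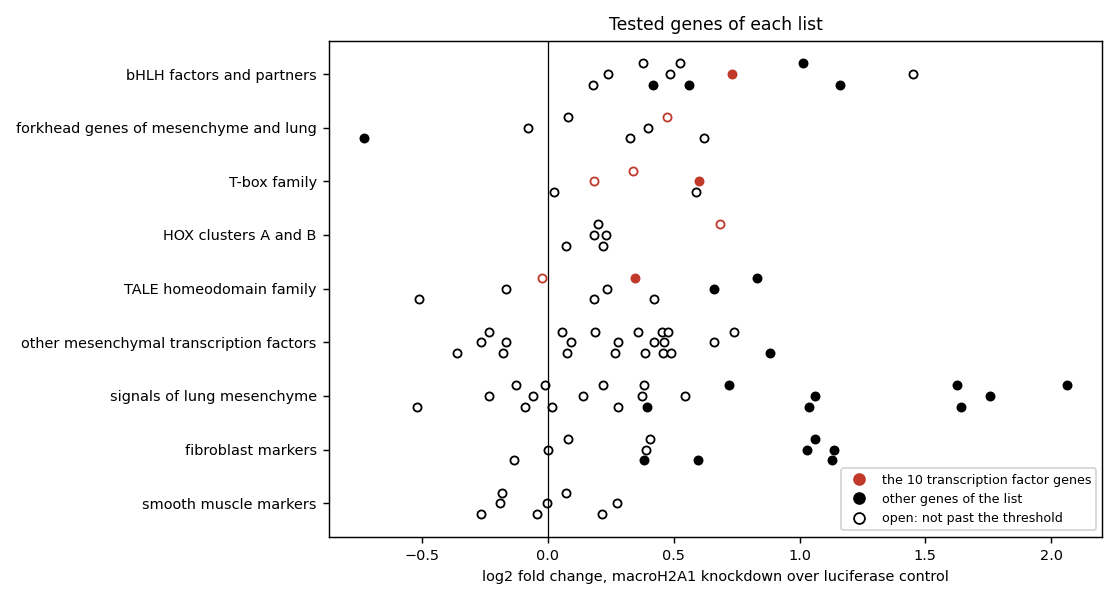
Log2 fold change, macroH2A1 knockdown over luciferase control (horizontal axis), of every tested gene in 9 lists, with the 8 tested lung mesenchyme factors in red and other genes in black. Filled points passed the test. Higher were 5 of 11 bHLH genes, 3 of 9 TALE genes, 1 of 5 T-box genes and 8 of 21 signals. So were 6 of 11 fibroblast markers and 1 of 22 other mesenchymal transcription factors. FOXL1 was lower, and no HOX or smooth muscle gene was called by this edgeR test, while HOXA5 and TAGLN were called in other settings.

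Levels of different genes were compared only per length, as counts per kilobase of merged exons per 1000000 (RPKM). In the knockdown, TCF21 and MEIS1 led with 19.2 ± 1.20 and 18.6 ± 0.450 RPKM, and in the control MEIS1 with 14.6 ± 1.01 RPKM stood above TCF21 with 11.5 ± 0.464 RPKM (SD, n = 3 each). The ranges of TCF21 and MEIS1 overlapped in the knockdown and did not overlap in the control. TBX3 averaged 11.3 RPKM in the knockdown and 7.45 RPKM in the control, FOXF1 11.2 RPKM in the knockdown and 8.06 RPKM in the control, and TBX2 8.62 RPKM in the knockdown and 7.61 RPKM in the control.

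HOXA5 followed at 8.11 RPKM in the knockdown and 5.03 RPKM in the control, TBX5 at 6.33 RPKM in the knockdown and 5.01 RPKM in the control, and MEIS2 at 2.56 RPKM in the knockdown and 2.60 RPKM in the control. HOXB5 was lower still, at 0.827 RPKM in the knockdown and 0.747 RPKM in the control. Neighbours in the order whose libraries overlapped were TBX3 with FOXF1, FOXF1 with TBX2, TBX2 with HOXA5 and HOXA5 with TBX5 in the knockdown, and FOXF1 with TBX2, TBX2 with TBX3 and HOXA5 with TBX5 in the control. The order depended on the length used, and it changed with the longest coding transcript of each gene in place of merged exons. By that length MEIS1 led in both groups, at 39.8 RPKM in the knockdown and 31.2 RPKM in the control. TCF21 did not reach it, and in the control TBX2 also stood above TCF21, at 13.7 beside 11.5 RPKM with no overlap.

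**Figure D4:**
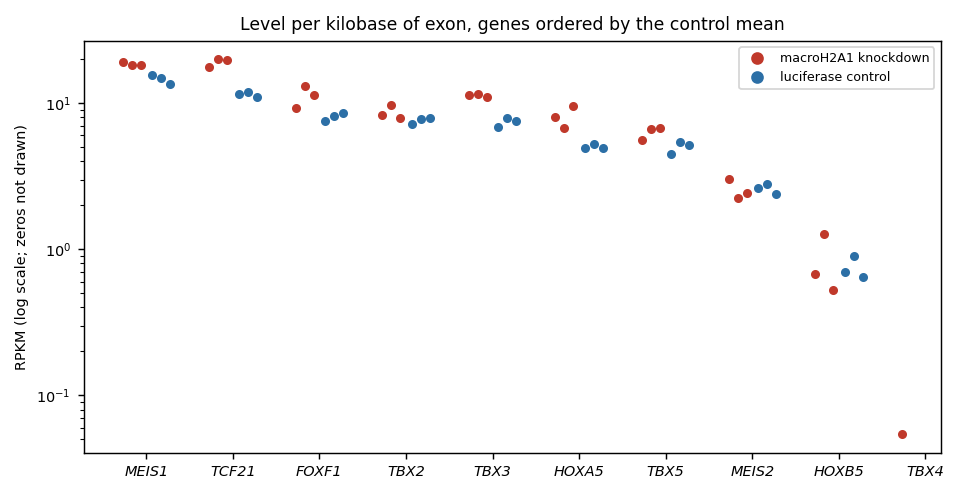
Counts per kilobase of merged exons per 1000000 (RPKM, log scale) of the 10 genes in each macroH2A1 knockdown library (red, left) and luciferase control library (blue, right), ordered by the control mean; libraries at 0 are not drawn. MEIS1 and TCF21 are the highest in both groups, HOXB5 lies near 1 RPKM, and TBX4 appears with a single knockdown library.

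Genes that signal to and from these factors were read from a list of 34, of which 21 were tested, 8 rose and none fell, with a median log2 fold change of 0.37. WNT2, a mesenchymal ligand that specifies the mouse lung together with WNT2B, averaged 16.7 ± 0.976 CPM in the knockdown and 5.41 ± 0.867 CPM in the control (log2 fold change 1.64, edgeR adjusted p = 0.00317, n = 3 each). BMP4, which acts on the growing bud tip, averaged 56.9 ± 1.66 CPM in the knockdown and 13.6 ± 1.87 CPM in the control (log2 fold change 2.06, edgeR adjusted p = 0.000566, n = 3 each). The related ligand WNT2B rose with a log2 fold change of 1.76 (edgeR adjusted p = 0.00909).

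FGF7, the mesenchymal ligand of the epithelial FGF receptor, and PDGFRA, the receptor that marks alveolar fibroblasts, had log2 fold changes of 0.72 and 1.06 (edgeR adjusted p = 0.00489 and 0.00113). SPRY1, which dampens FGF signals, rose by 1.63 on the log2 scale, GLI3, an effector of Hedgehog signalling, by 1.04, and FGFR1 by 0.39 (edgeR adjusted p = 0.00695, 0.0207 and 0.0332). GLI3 lost its call in 5 and FGFR1 in 9 of the 15 alternative settings, and without 1 library 6 or 7 genes of the list were called. FGF10, the best known signal of distal lung mesenchyme, had 4, 2 and 2 counts in the knockdown libraries and 1, 0 and 0 counts in the control libraries and was too low to test. PTCH1, a readout of Hedgehog signalling, had a log2 fold change of 0.54 and did not pass (edgeR adjusted p = 0.122).

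Genes described elsewhere as targets of the 10 factors, mostly in the mouse, made a list of 19, of which 14 were tested, 5 rose, 2 fell, and the median log2 fold change was 0.63. With only the genes of the authors' table, edgeR called 9 higher and 2 lower. Those that rose were WNT2 and BMP4, named with the signals, and TEK, KDR and ITGB3 (edgeR adjusted p at most 0.0119). TEK and ITGB3 had log2 fold changes of 1.08 and 0.70, and KDR had 51, 33 and 27 counts in the knockdown libraries and 2, 2 and 1 counts in the control libraries. ITGB3 lost its call without control replicate 2 (log2 fold change 0.65, edgeR adjusted p = 0.0545). The endothelial markers CDH5, VWF, ERG and TIE1 were too low to test, and PECAM1 was at 0 in all libraries. Those that fell were CDKN1A and CDKN2B, cell cycle inhibitors of which CDKN1A is repressed by TBX2 and TBX3, with log2 fold changes of -0.45 and -0.90 (edgeR adjusted p = 0.0178 and 0.0164). They lost their calls in 6 and 5 of the alternative settings, always at a negative log2 fold change. CDKN1C, another inhibitor of that kind, had a log2 fold change of 1.46 and did not pass (edgeR adjusted p = 0.0517).

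Another 40 transcription factors of mesenchyme outside these families were read in the same way, of which 22 were tested, 1 rose and none fell with edgeR, with a median log2 fold change of 0.32. That count depended on the test and the genes used: at an unadjusted p under 0.05, 11 were higher and 1 lower, DESeq2 called 2 and limma-voom 3 higher, and edgeR on the genes of the authors' table called 10 higher and 1 lower of 27. Of the 6 fits without 1 library, 5 called 0. The one that rose was PRRX2, a homeodomain factor of fetal connective tissue, which averaged 11.9 ± 1.71 CPM in the knockdown and 6.52 ± 0.936 CPM in the control (log2 fold change 0.88, edgeR adjusted p = 0.0385, n = 3 each). That call was lost in 7 of the 15 alternative settings. PRRX1, its relative, did not pass at a log2 fold change of 0.48 (edgeR adjusted p = 0.0569).

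Markers of fibroblasts were also read. Of 11 tested markers, COL1A2, COL3A1, PDGFRA, DCN, LUM and FBN1 rose, none fell, and the median log2 fold change was 0.41, while VIM and THY1 had log2 fold changes of 0.00061 and 0.08 and did not pass. COL1A2 and FBN1 lost their calls in 6 and 8 of the 15 alternative settings. Of 8 smooth muscle markers edgeR and DESeq2 called none, with 1 higher and 1 lower at an unadjusted p under 0.05, the median log2 fold change was -0.02, and the summed level was 1029 to 1068 CPM in the knockdown and 1011 to 1070 CPM in the control. TAGLN, at a log2 fold change of 0.22, was called higher by limma-voom (adjusted p = 0.0407) and by edgeR on the genes of the authors' table (adjusted p = 0.00471). The 7 mesothelial markers summed to 1.34 to 16.7 CPM in the knockdown and 2.06 to 3.43 CPM in the control, with MSLN at 0 in every library and the highest sum in knockdown replicate 2. Most of that highest sum came from UPK3B alone, which is described at the end. Knockdown replicate 2 was also the highest of the 6 libraries for FOXF1 and TBX2, and by a small margin for TCF21 and TBX3. Without it the log2 fold changes were 0.71 for TCF21 and 0.59 for TBX3, which both passed (edgeR adjusted p = 0.0176 and 0.0293), 0.35 for FOXF1 and 0.10 for TBX2, which did not. The part of these markers in the levels of TCF21, TBX3 and MEIS1 was not tested.

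The genes next to the 10 factors on their chromosomes were read as well. Of 16 adjoining protein-coding genes outside the set, 11 were tested, 1 rose and none fell, with a median log2 fold change of 0.16. The one that rose was EYA4, a transcriptional coactivator 357 kb from TCF21 on the same strand (GRCh38), which averaged 91.0 ± 3.77 CPM in the knockdown and 52.8 ± 2.75 CPM in the control (log2 fold change 0.78, SE 0.07, edgeR adjusted p = 0.00229, n = 3 each). TBPL1, on the other side of TCF21, had a log2 fold change of 0.16 and did not pass (edgeR adjusted p = 0.628). The log2 fold change of MED13L, beside TBX3, was 0.30 (edgeR adjusted p = 0.0642), and HOXA4 and HOXA6 beside HOXA5 were too low to test. FOXL1, which fell, lies in the cluster of FOXF1 but does not adjoin it and is not among these genes. In a wider list of 31 noncoding and coding neighbours, 15 were tested, 1 rose and 1 fell.

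For each of the 3 factors that rose, the protein-coding genes with the most similar pattern over the 6 libraries were found among 10437 tested, by the root-mean-square distance of mean-centred log2 (CPM + 1). Nearest to TCF21 were MTR, which encodes methionine synthase, and VLDLR, a lipoprotein receptor, at distances of 0.0489 and 0.0509 where the median gene was at 0.41. TBX3 was closest to FAM193B and ZNF852, at 0.0402 and 0.0482 (median 0.352), and MEIS1 to TMEM98, at 0.0134 (median 0.264). These distances are descriptions over 6 libraries that share 2 groups.

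In the authors' deposited table, made with another test on fewer genes, 9 of the 10 factors were listed and TBX4 was not. Of those 9, 5 had an adjusted p under 0.05 in the authors' deposited table, where 12.0% of all 11638 genes did and 5.46% were also higher in the knockdown. They were TCF21 (adjusted p = 2.40e-10), TBX3 (1.91e-06), MEIS1 (0.000127), FOXF1 (0.0319) and HOXA5 (0.0389), all with higher means in the knockdown in the authors' deposited table. When edgeR was run on the genes of that table only, 6 of the 10 factors were called, these 5 and TBX5, and 17.7% of all genes were.

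**Figure D5:**
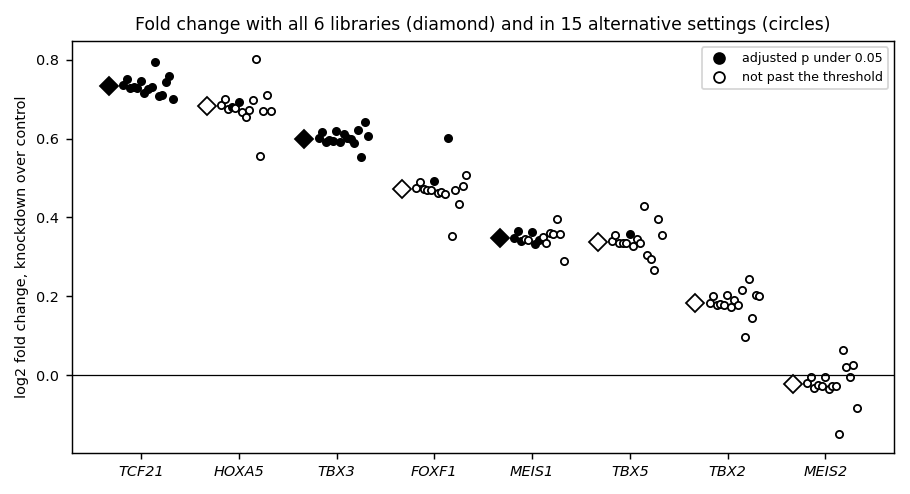
Log2 fold change of the 8 tested genes, macroH2A1 knockdown over luciferase control (vertical axis), with all 6 libraries (diamond) and in each of 15 alternative settings (circles), filled where the adjusted p was under 0.05. TCF21 (0.70 to 0.79) and TBX3 (0.55 to 0.64) passed in every setting, MEIS1 in 6 of 15, FOXF1 and HOXA5 in 2 each, TBX5 in 1, and TBX2 and MEIS2 in none.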

How the data were processed

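RNA-seq libraries of 3 macroH2A1 knockdown and 3 luciferase control cultures were grouped by their titles. Ribosomal RNA was removed, second strands were marked with dUTP and 1 lane was sequenced, per the labels' protocols. The authors deposited raw counts per Ensembl gene. CASAVA 1.7, GSNAP, HTSeq and hg19 are named in the submitters' processing notes, and neither annotation nor strand setting is given in the sources used here. The deposited lines that name no gene were left out: 64.4% to 68.8% of reads had no unique alignment. The authors also deposited a table made with DESeq 1.10.1 that holds, per the file headers, mean signal (scaled counts) per group, their ratio, its log2 and p-values.

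Genes were filtered with filterByExpr (minimum count 10), scaled by TMM and tested with edgeR 4.0.16 (glmQLFit, glmQLFTest) in R 4.3.3, with group as the only term and Benjamini-Hochberg adjustment over 13445 genes. CPM values use TMM-scaled library sizes, and RPKM divides them by exon length from GENCODE 29, which matched 47399 of 57659 identifiers. The biological coefficient of variation was 24.9%, and intervals on counts cover counting error only. Alternatives were other scalings and filters, the genes of the authors' table, DESeq2 1.42.0, limma 3.58.1 with voom, a replicate block and leaving out each library; for genes outside the set of 10 they were added after seeing the data. The edgeR, DESeq2 and limma-voom fits were tried on simulated counts, which were set to vary less between libraries than these data.

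The 10 factors are all named, and from each of 18 lists the genes past the threshold and those overlapping or adjoining a factor; list genes that did not pass were named after their values were seen. A few genes picked in this way are not reported here. Factors and lists were chosen with earlier results of these data known. Promoter windows came from RefSeq (GRCh38.p14). Of 284 list entries, 3 had no match.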

Additional observations from a re-analysis of the deposited data

How the results depend on the processing

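TCF21 and TBX3 kept direction and call in all 15 alternatives, and TBX2 and MEIS2 did not pass in any. HOXB5 was tested in 4 of them and did not pass. With each library left out in turn, log2 fold changes ran from 0.29 to 0.40 for MEIS1, 0.35 to 0.60 for FOXF1 and 0.56 to 0.80 for HOXA5. MEIS1 lost its call with every gene of at least 1 count tested (0.34, adjusted p = 0.110) and with at least 20 counts in all (0.34, adjusted p = 0.0644); the cause was not tested. With only the genes of the authors' table, fewer were tested, and FOXF1 (0.49), HOXA5 (0.69) and TBX5 (0.36) passed, for 6 called factors in place of 3 and 1014 genes higher and 1046 lower in place of 524 and 580. HOXA5 also passed with genes of at least 1 count (0.68, adjusted p = 0.0495). FOXF1 passed without knockdown replicate 1. Leaving out 1 library, which lowers the number of samples, gave 225 to 303 genes higher and 198 to 262 lower.

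Libraries with the same number in both groups did not deviate together (correlations -0.0311, -0.0238 and -0.1741). With 3 libraries per group, these correlations cannot show whether the numbers pair the libraries. A fit with the replicate number as a block called 230 genes higher and 186 lower, and TCF21 and TBX3 among the factors, with MEIS1 at 0.35 (adjusted p = 0.0835). It called 0 of the other mesenchymal transcription factors in place of 1. WNT2B lost its call under the block alone (1.76, adjusted p = 0.0547). None of the called list genes changed sign in any of the 15 alternatives. TBX4 lay under 3 counts in every library, so no fold is given for it, and it did not pass where it was tested.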

Other observations

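UPK3B, a marker of mesothelium, had 2, 67 and 0 counts in the knockdown libraries and 0, 2 and 0 counts in the control libraries, so that knockdown replicate 2 held nearly all of them. It did not pass the filter on low counts. With other sets of genes edgeR called it higher: with every gene of at least 1 count (adjusted p = 0.0385) and with only the genes of the authors' table (adjusted p = 0.0109).

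HOXB7 was listed at 0 in all 6 libraries. The annotation and strand setting of the counting are unknown, so the 0 does not show that the gene was silent.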
